A study of Mus musculus with 4 samples.

Results

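The 10 immediate early genes Fos, Fosb, Jun, Junb, Jund, Egr1, Ier2, Atf3, Dusp1 and Nr4a1 were followed in RNA sequencing libraries of endothelial cells from the brains of mouse embryos at day 18. They were taken by gene symbol from the 2 deposited tables, and each of the 10 was found in both, among 14100 genes listed in both tables and 17905 listed in either. The genotype labelled STING ECKO had 2 libraries (1 and 2), and wild type (WT) had 2 (3 and 5). STING, the product of Tmem173 (Sting1), relays the sensing of DNA in the cytosol, and the label names its knockout in endothelial cells. The labels give C57BL/6 for all 4 libraries and no treatment. Which Cre driver and exons the knockout used, and how endothelial cells were isolated, is not given in the sources used. The design text speaks of triplicates, and the 2 libraries a genotype with labels were analysed here.

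Immediate early genes are transcribed within minutes of a stimulus without new protein synthesis, through transcription factors that already sit on their promoters and are switched on by MAP kinase and calcium signalling. Their messengers are short and are destroyed quickly, in many cases through AU-rich elements in the 3′ untranslated region (UTR) built from the pentamer ATTTA. Many of the proteins are transcription factors themselves. In endothelium they respond to shear stress, growth factors and inflammatory signals, and in many tissues also to the handling of cells during dissociation.

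The 10 genes were compact and GC-rich. Their reference transcripts had a median of 3 exons and 2049 bases, against medians of 9 exons and 3065 bases over the 11731 coding genes tested. Jun, Junb, Jund and Ier2 have a single exon. The median GC content was 56.5%, against 50.3% over the coding genes tested, and was highest in Jund at 67.1%. In the 3′ UTR, 9 of 10 had at least 1 ATTTA, against 68.4% of 11622 coding genes, and 5 of 10 had at least 3, against 36.7%. At 5 or more the order turned, with 0 of 10 against 21.3%. Ier2 had none. The median density was 2.89 ATTTA per 1000 bases of 3′ UTR in the 10 genes and 1.31 over all coding genes tested. Windows of 30 bases with 2 pentamers from Fos, Jun, Dusp1 and Nr4a1 are shown to make the element visible, with each ATTTA in capitals (GENCODE M21 transcripts, written as DNA). In Fos and Dusp1 a pair of pentamers overlaps by their shared A, and in Jun and Nr4a1 the pentamers lie apart.
Fos 3′ UTR: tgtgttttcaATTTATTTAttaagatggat
Jun 3′ UTR: atcATTTAtaatcataggaaagATTTAgta
Dusp1 3′ UTR: gctggtccttATTTATTTAacacccccctc
Nr4a1 3′ UTR: ATTTAtatttgtgtattttcctggATTTAt

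Promoters of 8 of the 10 genes were read from RefSeq windows of 300 bases (GRCm38.p6, 250 before and 50 after the start), without Egr1 and Ier2. The Jund window, chr8:70697489-70697788, belongs to a RefSeq start that lies before the start in the tables (70698949), and it holds none of the motifs below apart from GGAA. The Atf3 window, chr1:191183284-191183583 on the minus strand, belongs to a RefSeq start inside the gene, far downstream of its GENCODE start (191218039). Positions below are counted from the RefSeq start of each window unless stated. TGACG, the core of the cyclic AMP response element bound by the CREB and ATF families, was searched on both strands and lay in 6 of 8 windows (Fos, Fosb, Junb, Atf3, Dusp1 and Nr4a1), against 20.8% of 32851 windows. The full palindrome TGACGTCA lay in the Dusp1 window only, against 1.79% of all windows, and it holds TGACG on both strands. GCGNGGGCG, the motif of EGR proteins, lay in those of Fosb and Nr4a1, on either strand, against 5.55%. TATAAA, read on the given strand, lay in those of Fos and Junb, against 8.32%. In the Junb window, chr8:84978699-84978998, it began at base 251, at the RefSeq start. The GENCODE start of Junb, 84978718 on the minus strand, is further downstream, so TATAAA lies before that start. The AP-1 motif TGANTCA, searched on both strands, lay in none of the 8, against 7.81%, and the CArG box of serum response factor in none, against 1.63%. GGAA, the core of ETS factors, lay in 8 of 8 but also in 96.0% of all windows. The GC content was 46.7% in the Jund window and from 58.7% (Fos) to 72.3% (Nr4a1) in the others, against a median of 52.7% over all windows. The shares of windows with a motif were not adjusted for GC content. The 250 bases before the start are shown for the 3 promoters with several TGACG cores, on the strand of the gene, with TGACG or its complement CGTCA, TGACGTCA, the EGR motif and TATAAA in capitals.
Fos promoter, chr12:85473640-85473889, plus strand: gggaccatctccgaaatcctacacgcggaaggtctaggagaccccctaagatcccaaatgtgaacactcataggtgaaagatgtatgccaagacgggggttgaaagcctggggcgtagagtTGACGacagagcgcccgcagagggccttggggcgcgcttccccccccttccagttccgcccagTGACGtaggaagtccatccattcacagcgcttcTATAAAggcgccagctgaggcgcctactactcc
Dusp1 promoter, chr17:26508473-26508722, minus strand: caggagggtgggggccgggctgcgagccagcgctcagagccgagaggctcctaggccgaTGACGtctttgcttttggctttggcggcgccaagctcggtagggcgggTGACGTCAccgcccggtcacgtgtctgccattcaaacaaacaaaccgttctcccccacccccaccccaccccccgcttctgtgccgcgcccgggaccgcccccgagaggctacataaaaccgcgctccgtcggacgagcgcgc
Nr4a1 promoter, chr15:101266596-101266845, plus strand: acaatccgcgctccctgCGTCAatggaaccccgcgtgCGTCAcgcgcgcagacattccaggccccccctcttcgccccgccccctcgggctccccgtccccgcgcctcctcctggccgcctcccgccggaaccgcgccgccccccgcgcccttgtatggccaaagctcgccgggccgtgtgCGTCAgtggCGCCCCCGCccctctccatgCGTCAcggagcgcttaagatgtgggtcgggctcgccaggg
The Fos window has 2 TGACG cores, 129 and 66 bases before the start, and TATAAA 33 bases before it. The Nr4a1 window has 4 cores, all as CGTCA, and an EGR motif 60 bases before the start between the third and the fourth core. A match describes the letters in these windows and not the binding of a factor. A missing match covers only the exact letters searched and these 300 bases, and not variant sites or sites further from the start.

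Library sizes were 18610298 and 22169261 listed reads in STING ECKO libraries 1 and 2, against 21472677 and 20591981 in WT libraries 3 and 5. Genes at 0 reads made up 2.68% and 13.2% of the 14100 in STING ECKO libraries 1 and 2, against 5.25% and 2.39% in WT libraries 3 and 5. The targeted gene Tmem173 was at 3.64 and 8.34 CPM, the read count on a common scale of library size set with TMM factors, in STING ECKO libraries 1 and 2, against 4.46 and 6.23 CPM in WT libraries 3 and 5. It did not separate the genotypes, a whole-gene count includes exons that may lie outside the deleted part, and every direction below rests on the labels. Ddx3y, on the Y chromosome, was at 3623 reads in STING ECKO 1 and at 0 reads or not listed in the other 3 libraries. Xist, expressed from the inactive X chromosome of females, had 0 and 876 reads in the STING ECKO libraries, against 2347 and 3374 in the WT libraries. All 12 endothelial markers were present, with sums of 29347 and 27682 CPM in STING ECKO libraries 1 and 2, against 28704 and 28286 CPM in WT libraries 3 and 5.

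None of the 10 immediate early genes passed the genotype test, and 3 of them had genotypes that did not overlap: Ier2 was higher in both STING ECKO libraries, and Jun and Dusp1 were lower. With p adjusted over 13365 genes by the Benjamini-Hochberg method, the quasi-likelihood test of edgeR called 0 of 10 at an adjusted p under 0.05, and 0 genes in all (0.0%), and each of the 10 had an adjusted p of 1.00. At an unadjusted p under 0.05 there were 2 of the 10, Jun and Ier2, against 650 of all genes tested (4.86%). Over all genes, 2086 were higher without overlap in STING ECKO (15.6%) and 2490 were lower without overlap (18.6%), so that 1 higher and 2 lower of 10 lie near the background. The log2 fold change of STING ECKO over WT was below 0 in 8 of 10, against 51.3% of all genes, and its median was -0.22 over the 10 and -0.02 over all genes. Without STING ECKO 1 it was below 0 in 5 of 10, with a median of -0.06 over the 10 and -0.20 over all genes, and without WT 5 it was below 0 in 5 of 10, with a median of -0.07. Leaving out STING ECKO 2 gave a median of -0.52. The number of all genes at an unadjusted p under 0.05 was 162 without WT 3, 243 without WT 5 and 2668 when STING ECKO 1 was left out. DESeq2 called 87 genes and the edgeR likelihood ratio test 33, with none of the 10 among them, and limma-voom called 0. Whether libraries of a genotype came from separate animals is not in the labels, so the tests measure the spread between these libraries, which may be technical within WT; Ddx3y and Xist set the STING ECKO libraries apart as different samples.

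**Figure D1:**
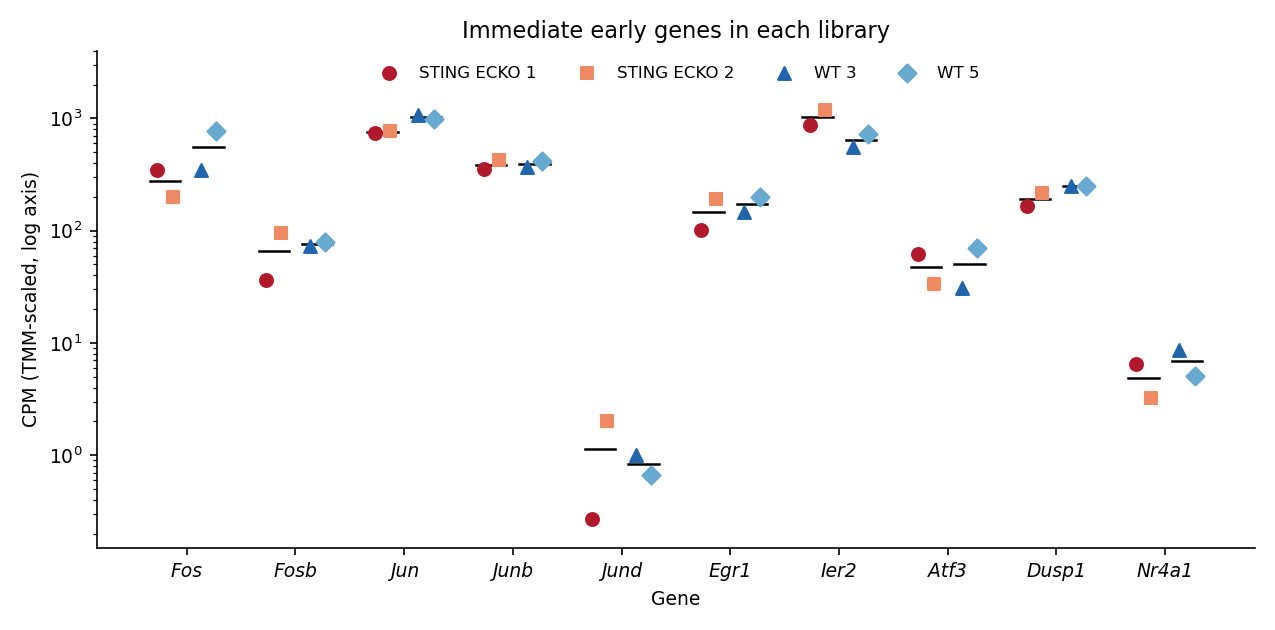
CPM of each of the 10 genes (log axis) in STING ECKO 1 and 2 (left, red and orange) and WT 3 and 5 (right, dark and light blue), with black bars at the genotype means (n = 2 each). The genotypes separate in Jun, Ier2 and Dusp1 and overlap in the other 7 genes.

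Fos encodes the founding subunit of AP-1, a dimer of FOS and JUN proteins that binds DNA through basic leucine zipper domains. The gene (ENSMUSG00000021250, chromosome 12, 85473890 to 85477273, plus strand, GRCm38) was at 350 and 200 CPM in STING ECKO libraries 1 and 2, against 344 and 767 CPM in WT libraries 3 and 5, from 6445 and 4356 reads in STING ECKO against 7484 and 16013 in WT. WT 5 stood alone at the top, STING ECKO 2 was lowest, and STING ECKO 1 and WT 3 were nearly level, so the genotypes overlapped. The means were 275 ± 107 CPM in STING ECKO and 556 ± 300 CPM in WT (SD, n = 2 each). The log2 fold change was -1.01 (SE 0.47; edgeR quasi-likelihood test, Benjamini-Hochberg adjusted p = 1.00), and without WT 5 it was -0.32. Scaled by library totals alone, STING ECKO 1 was at 346 CPM and WT 3 at 349 CPM, and the genotypes then did not overlap, by a narrow margin. The authors' deposited table gives a log2 fold change of -0.01 for STING ECKO 1 over WT 3, and their other table gives -1.98 for STING ECKO 2 over WT 5.

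Fosb encodes another FOS protein, whose truncated splice form persists in stimulated neurons. The gene (ENSMUSG00000003545, chromosome 7, 19302696 to 19310051, minus strand) was at 36.6 and 95.5 CPM in STING ECKO libraries 1 and 2, against 72.5 and 79.5 CPM in WT libraries 3 and 5. The STING ECKO libraries were the lowest and the highest of the 4, with both WT libraries between them. Fosb had a log2 fold change of -0.20 (SE 0.53), which was 0.32 without STING ECKO 1. Fos and Fosb did not follow each other: STING ECKO 2 was lowest in Fos and highest in Fosb.

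Jun encodes the main partner of FOS in AP-1. It was the steadiest of the 3 genes whose genotypes did not overlap. The gene (ENSMUSG00000052684, chromosome 4, 95049034 to 95052222, minus strand) was at 747 and 766 CPM in STING ECKO libraries 1 and 2, against 1075 and 981 CPM in WT libraries 3 and 5, from 13743 and 16728 reads in STING ECKO against 23395 and 20478 in WT. Both STING ECKO libraries lay below both WT libraries. The means were 757 ± 13.6 CPM in STING ECKO and 1028 ± 66.0 CPM in WT (SD, n = 2 each), and the log2 fold change was -0.44 (SE 0.16; edgeR quasi-likelihood test, Benjamini-Hochberg adjusted p = 1.00). Over the alternatives the lowest adjusted p was 0.292, by any tool run, and the log2 fold change stayed between -0.51 and -0.38. The mean absolute log2 difference was 0.44 between libraries of unlike genotype and 0.08 between libraries of like genotype. Exons of Jun share 232 bases (7.28%) with the antisense gene Junos, which is in neither table.

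Junb encodes a JUN protein that can hold back AP-1 activity when it replaces JUN. The gene (ENSMUSG00000052837, chromosome 8, 84974484 to 84978718, minus strand) was at 351 and 423 CPM in STING ECKO libraries 1 and 2, against 370 and 420 CPM in WT libraries 3 and 5. The 2 genotypes covered nearly the same range, and the highest library was 1.21 times the lowest, the smallest such ratio of the 10 genes. Junb had a log2 fold change of -0.03 (SE 0.21), with values of 0.09 without STING ECKO 1 and 0.06 without WT 5. Its exons share 173 bases (7.52%) with Prdx2, on the other strand, which had between 9722 and 13288 reads a library.

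Jund encodes the JUN protein that many resting cells hold at a steady level. Here it had few reads: the gene (ENSMUSG00000071076, chromosome 8, 70698949 to 70700616, plus strand) had 5 and 44 reads in STING ECKO libraries 1 and 2, against 22 and 14 reads in WT libraries 3 and 5. On listed totals these are 0.269 CPM (95% exact interval 0.0872 to 0.627) and 1.98 CPM (1.44 to 2.66) in STING ECKO libraries 1 and 2, against 1.02 CPM (0.642 to 1.55) and 0.680 CPM (0.372 to 1.14) in WT libraries 3 and 5. The intervals cover counting error only, and those of the STING ECKO libraries do not meet, so that the genotype's own libraries lay at both extremes. The fitted log2 fold change of 0.44 (SE 1.66) was -1.61 without STING ECKO 2. The antisense gene Gm11175 covers 877 of its 1668 exon bases (52.6%), is in neither table, and no source used here gives the strand setting of the counting, so the level of Jund is uncertain.

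**Figure D2:**
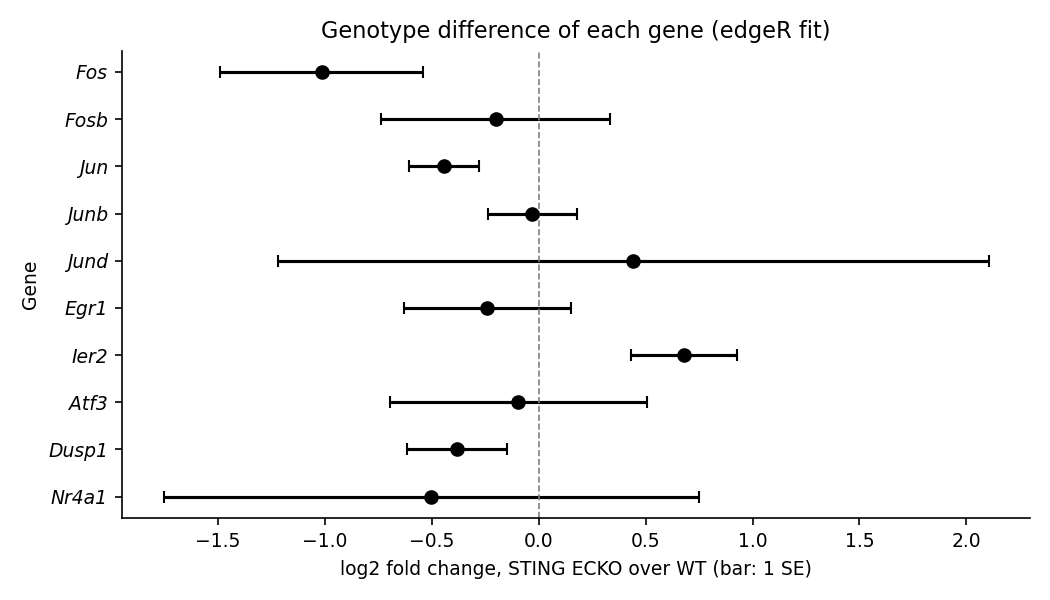
Fitted log2 fold change of STING ECKO over WT for each of the 10 genes, with bars of 1 SE (edgeR, 2 libraries a genotype). Points lie between -1.01 (Fos) and 0.68 (Ier2), 8 of them below 0, and the bars are longest for the low genes Jund and Nr4a1.

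Egr1 encodes a zinc finger transcription factor induced by growth factors and by shear stress in endothelium. The gene (ENSMUSG00000038418, chromosome 18, 34859823 to 34864984, plus strand) was at 101 and 193 CPM in STING ECKO libraries 1 and 2, against 147 and 201 CPM in WT libraries 3 and 5. Each genotype had 1 lower and 1 higher library, and the ranges overlapped over most of their length. Egr1 had a log2 fold change of -0.24 (SE 0.39), 0.14 without STING ECKO 1 and 0.0034 without WT 5.

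Ier2 encodes a small nuclear protein of the growth factor response, and it was the gene with the highest level per length among the 10. The gene (ENSMUSG00000053560, chromosome 8, 84661331 to 84662852, minus strand) was at 867 and 1198 CPM in STING ECKO libraries 1 and 2, against 559 and 732 CPM in WT libraries 3 and 5, from 15952 and 26160 reads in STING ECKO against 12160 and 15283 in WT. Both STING ECKO libraries lay above both WT libraries, and no other of the 10 genes had that order. The means were 1033 ± 234 CPM in STING ECKO and 645 ± 123 CPM in WT (SD, n = 2 each). The log2 fold change was 0.68 (SE 0.25; edgeR quasi-likelihood test, Benjamini-Hochberg adjusted p = 1.00), and it stayed between 0.43 and 0.89 over the alternatives, with a lowest adjusted p of 0.196. The mean absolute log2 difference was 0.67 between genotypes and 0.43 within them. The authors' deposited tables give log2 fold changes of 0.60 for STING ECKO 1 over WT 3 and 0.67 for STING ECKO 2 over WT 5.

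Atf3 encodes a stress-induced repressor of the ATF and CREB family that pairs with JUN proteins. The gene (ENSMUSG00000026628, chromosome 1, 191170296 to 191218039, minus strand) was at 61.4 and 33.8 CPM in STING ECKO libraries 1 and 2, against 31.1 and 70.6 CPM in WT libraries 3 and 5. Each genotype had 1 library near the low end and 1 near the high end, and the 2 WT libraries were the lowest and the highest of the 4. Atf3 had a log2 fold change of -0.10 (SE 0.60), 0.27 without STING ECKO 2 and 0.61 without WT 5. The authors' deposited tables give log2 fold changes of opposite sign, 0.94 for STING ECKO 1 over WT 3 and -1.11 for STING ECKO 2 over WT 5.

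Dusp1 encodes a nuclear phosphatase that switches off the p38, JNK and ERK kinases, the same kinases that induce it. The gene (ENSMUSG00000024190, chromosome 17, 26505590 to 26508519, minus strand) was at 167 and 217 CPM in STING ECKO libraries 1 and 2, against 249 and 252 CPM in WT libraries 3 and 5, from 3077 and 4742 reads in STING ECKO against 5429 and 5256 in WT. Both STING ECKO libraries lay below both WT libraries, which were nearly equal. The means were 192 ± 35.3 CPM in STING ECKO and 251 ± 1.75 CPM in WT (SD, n = 2 each). The log2 fold change was -0.38 (SE 0.24; edgeR quasi-likelihood test, Benjamini-Hochberg adjusted p = 1.00), -0.22 without STING ECKO 1 and -0.58 without STING ECKO 2.

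Nr4a1 encodes an orphan nuclear receptor induced in endothelium by growth factors. The gene (ENSMUSG00000023034, chromosome 15, 101266846 to 101274792, plus strand) was at 6.47 and 3.21 CPM in STING ECKO libraries 1 and 2, against 8.64 and 5.08 CPM in WT libraries 3 and 5, from 119 and 70 reads in STING ECKO against 188 and 106 in WT. STING ECKO 1 lay between the WT libraries, so the genotypes overlapped. Nr4a1 had a log2 fold change of -0.50 (SE 1.25), which was -1.11 without STING ECKO 1, -0.08 without STING ECKO 2 and -0.07 without WT 3.

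Libraries of one genotype differed about as much as libraries of different genotypes. The median over the 10 genes of the mean absolute log2 difference was 0.63 between genotypes and 0.73 within them, and it was larger within genotypes in 7 of 10. Over all genes tested the medians were 0.84 and 0.81, with 65.8% larger within, and over the 5722 genes with a mean of at least 30 CPM they were 0.48 and 0.48, with 65.7% larger within. The 3 exceptions were Jun, Ier2 and Dusp1, the genes whose genotypes did not overlap. With 2 libraries a genotype, the mean difference between genotypes is the larger exactly when the genotypes do not overlap. The counts and shares larger within therefore repeat the overlap counts above and are no further result. The pair of STING ECKO libraries differed by a median of 0.84 and the pair of WT libraries by 0.42, against 0.85 and 0.58 over all genes tested and 0.50 and 0.35 at 30 CPM or more. The highest library was a median of 2.21 times the lowest in the 10 genes, against 2.97 times over all genes and 1.86 times at 30 CPM or more.

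**Figure D3:**
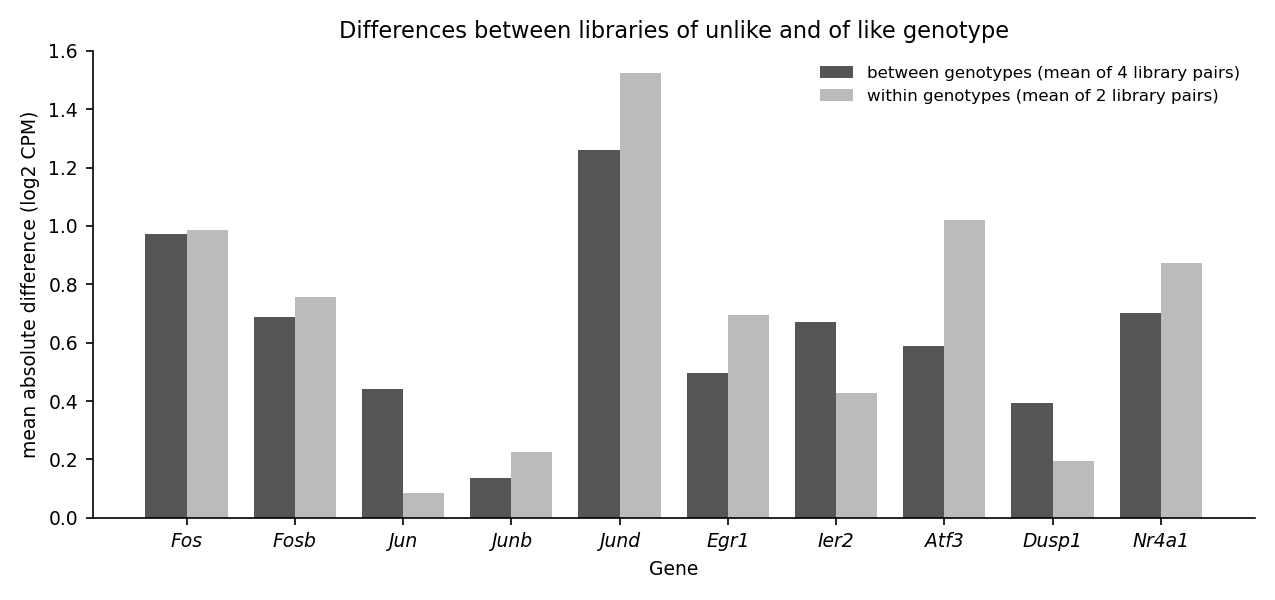
Mean absolute log2 CPM difference of each gene between libraries of unlike genotype (dark, 4 pairs) and of like genotype (light, 2 pairs). The dark bar is the taller in Jun, Ier2 and Dusp1 and the lower in the other 7 genes, which restates where the genotypes overlap.

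The 10 genes summed to 2688 and 3132 CPM in STING ECKO libraries 1 and 2, against 2857 and 3509 CPM in WT libraries 3 and 5, which is 0.266% and 0.308% of listed reads in STING ECKO against 0.290% and 0.356% in WT. STING ECKO 1 was the lowest library in 6 of the 10 and the highest in none, where over all genes tested it was lowest in 19.8% and highest in 22.2%. It is also the library with the Ddx3y reads, and the part of the sex of the embryos was not tested. WT 5 was the highest in 4 of the 10 and the lowest in none, where over all genes it was highest in 23.5% and lowest in 20.0%. STING ECKO 2 was above STING ECKO 1 in 7 of 10 (44.7% of all genes), and WT 5 above WT 3 in 7 of 10 (51.1% of all genes). In the authors' deposited tables, 7 of the 10 genes had log2 fold changes of the same sign in both library pairs, against 50.2% of the 14100 genes. Fosb, Jund and Atf3 had opposite signs there. Among the 7, Fos was at -0.01 for STING ECKO 1 over WT 3 and Junb at -0.03 for STING ECKO 2 over WT 5, so their shared sign rests on a value near 0.

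Markers of other cells differed between the same libraries. The border macrophage list (5 of 5 genes listed) summed to 103 and 52.2 CPM in STING ECKO libraries 1 and 2, against 106 and 881 CPM in WT libraries 3 and 5, with 1 of its genes, Cd163, at 0 reads in STING ECKO 2. The microglia list (9 of 9) summed to 514 and 382 CPM in STING ECKO, against 504 and 1007 CPM in WT. WT 5 had the highest sum in both lists and was also highest in Fos, Egr1, Atf3 and Dusp1. It was the highest library in all 5 macrophage genes, but in the microglia list Cx3cr1, Aif1 and C1qc were highest elsewhere, and P2ry12 was at 23.4 and 48.0 CPM in STING ECKO, against 24.3 and 6.61 CPM in WT. The neuron list (9 of 10) summed to 71.8 and 42.3 CPM in STING ECKO 1 and 2, with 2 and 3 genes at 0 reads, and to 157 and 107 CPM in WT libraries 3 and 5, with none at 0. Its log2 fold changes were below 0 in 8 genes and above 0 in 1, Rbfox3, at 6.41 and 14.5 CPM in STING ECKO, against 1.19 and 8.87 CPM in WT. The 7 tested genes of the 8 for astrocytes and radial glia summed to 59.3 and 10.2 CPM in STING ECKO, against 113 and 86.7 CPM in WT, with 4 of them at 0 reads in STING ECKO 2, and the pericyte list (8 of 8) to 10033 and 10471 CPM in STING ECKO, against 8102 and 7490 CPM in WT. Rgs5 made up most of the pericyte sum, at 6830 and 7238 CPM in STING ECKO, against 5555 and 4845 CPM in WT. In that list 5 genes were higher without overlap and 1 lower, against 15.6% and 18.6% of all genes. The lower gene was Cspg4, at 83.6 and 152 CPM in STING ECKO, against 154 and 180 CPM in WT, and Pdgfrb and Abcc9 overlapped. The part of these cells in the levels of the 10 genes was not tested. In bulk RNA, fewer cells of a type and less RNA per cell cannot be told apart.

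Levels of different genes are compared per length, as CPM per kilobase of exon. Ier2 was highest at 551 ± 178 (SD, n = 4), followed by Jun at 280 ± 50.6, Fos at 177 ± 104 and Junb at 170 ± 15.7. Dusp1 was at 82.1 ± 14.6, Egr1 at 35.8 ± 10.3, Atf3 at 22.8 ± 9.17 and Fosb at 11.4 ± 3.98. Nr4a1 was at 1.77 ± 0.693 and Jund at 0.595 ± 0.447 CPM per kilobase. The ranges of neighbours in this order did not meet between Ier2 and Jun, Junb and Dusp1, Dusp1 and Egr1, and Fosb and Nr4a1. They overlapped between Jun and Fos, Fos and Junb, Egr1 and Atf3, Atf3 and Fosb, and Nr4a1 and Jund. Fos was above Junb in 1 of 4 libraries, WT 5. Among AP-1 subunits, Fos and Fosb together had 155 and 100 CPM per kilobase in STING ECKO libraries 1 and 2, against 158 and 339 in WT libraries 3 and 5. Jun, Junb and Jund together had 387 and 425 CPM per kilobase in STING ECKO, against 499 and 490 in WT. The ratio of the FOS sum to the JUN sum was 0.400 and 0.235 in STING ECKO libraries 1 and 2, against 0.316 and 0.691 in WT libraries 3 and 5, and below 1 in each library.

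**Figure D4:**
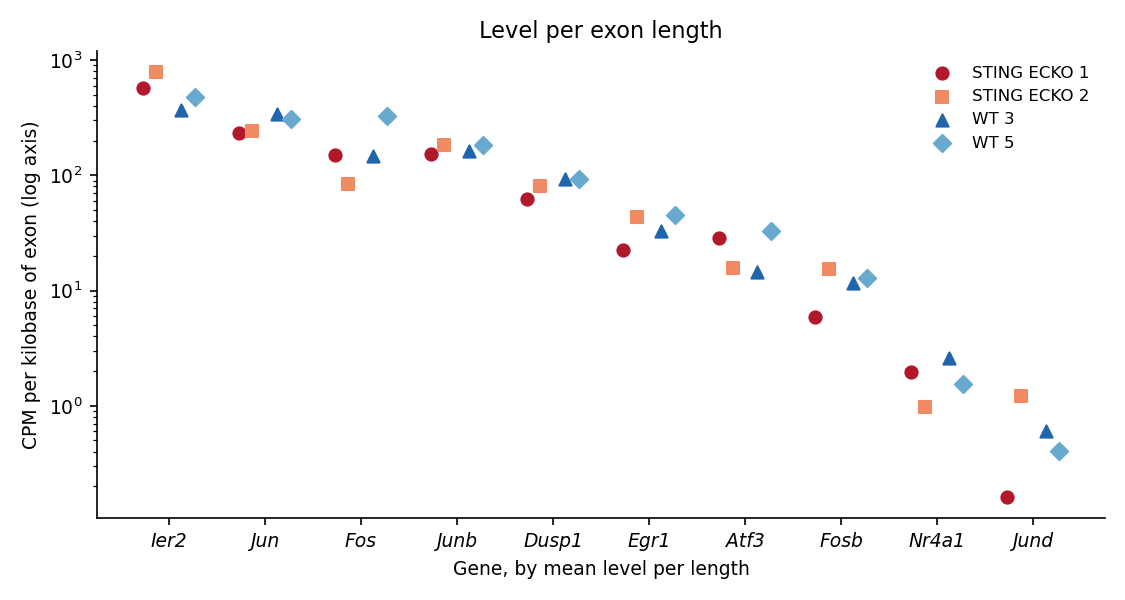
CPM per kilobase of exon (log axis) of the 10 genes in each library, ordered by the mean over the 4 libraries. Ier2 leads at 551, and Nr4a1 (1.77) and Jund (0.595) lie far below the other 8.

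Related genes, listed by function, were read from the same test, and 0 genes of each list passed it. Of 48 other immediate early and primary response genes, 39 were tested, 19 above and 20 below 0, with a median log2 fold change of -0.0019 and 7 higher and 10 lower without overlap, against 15.6% and 18.6% of all genes. Egr2, Egr3, Egr4, Nr4a3, Npas4 and Cebpb are listed in neither table. Fosl1, Arc and Ptgs2 are listed but were not tested, as they missed either the count filter or a listing in both tables. The 4 with the highest mean CPM were Nfkbia, the inhibitor of NF-κB (log2 fold change 0.18, SE 0.16), Plk2, a stress-induced kinase (-0.23, SE 0.18), Klf6, a zinc finger factor (0.03, SE 0.23), and Sgk1, a kinase induced by serum and glucocorticoids (-1.02, SE 0.39). Sgk1 was at 298 and 140 CPM in STING ECKO libraries 1 and 2, against 480 and 410 CPM in WT libraries 3 and 5, without overlap (edgeR quasi-likelihood test, Benjamini-Hochberg adjusted p = 1.00).

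Of 12 other partners of AP-1 proteins, 10 were tested, 3 above and 7 below 0 (51.3% of all genes are below), with a median log2 fold change of -0.38 and 2 higher and 4 lower without overlap, against 15.6% and 18.6% of all genes. Atf2 (log2 fold change -0.16, SE 0.33) and Atf7 (-0.32, SE 0.34), both partners of JUN, and the small MAF protein Mafg (-1.03, SE 0.68) were among those with the highest mean CPM. Mafg was at 13.8 and 13.6 CPM in STING ECKO libraries 1 and 2, against 26.0 and 29.9 CPM in WT libraries 3 and 5. Both STING ECKO libraries lay below both WT libraries in Mafg.

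Of 17 transcription factors that act on immediate early promoters, all 17 were tested, 10 above and 7 below 0, with a median log2 fold change of 0.05 and 6 higher and 5 lower without overlap, against 15.6% and 18.6% of all genes. Mef2a, a factor of the MADS box family, was at 0.64 (SE 0.35), Elk3, an ETS factor that works with serum response factor, at -0.36 (SE 0.25), Crebbp, the coactivator of CREB, at -0.28 (SE 0.22), and Mkl2 (Mrtfb), an actin-regulated coactivator of serum response factor, at 0.39 (SE 0.30) on the log2 fold change scale. Of 27 genes of the MAP kinase cascade, 26 were tested, 16 above and 10 below 0, with a median log2 fold change of 0.13 and 8 higher and 3 lower without overlap, against 15.6% and 18.6% of all genes. Mapk14, which encodes p38α, was at 176 and 142 CPM in STING ECKO libraries 1 and 2, against 82.3 and 73.7 CPM in WT libraries 3 and 5. Its log2 fold change was 1.03 (SE 0.28; edgeR quasi-likelihood test, Benjamini-Hochberg adjusted p = 0.971). The others named by their mean CPM were Nras (log2 fold change 0.36, SE 0.18), Map2k2 (-0.34, SE 0.29) and Mapk3, which encodes ERK1 (0.22, SE 0.24).

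Of 16 other MAP kinase phosphatases and feedback inhibitors, 14 were tested, 7 above and 7 below 0, with a median log2 fold change of -0.04 and 2 higher and 3 lower without overlap, against 15.6% and 18.6% of all genes. Dusp6, the cytoplasmic ERK phosphatase, was at 199 and 118 CPM in STING ECKO libraries 1 and 2, against 245 and 240 CPM in WT libraries 3 and 5, with a log2 fold change of -0.61 (SE 0.32). Both STING ECKO libraries lay below both WT libraries in Dusp6, as in Dusp1. Dusp2, a nuclear phosphatase like Dusp1, was at 64.1 and 74.0 CPM in STING ECKO, against 46.9 and 46.5 CPM in WT, which is the other direction (0.56, SE 0.37), and Dusp7 (0.27, SE 0.64) and Dusp8 (0.11, SE 0.68) overlapped. Nab1 and Nab2, corepressors of EGR proteins, had log2 fold changes of 0.01 (SE 0.36) and -1.08 (SE 2.39), with Nab2 at 0 reads in STING ECKO 2. Of 9 heat shock genes of the protein folding machinery, 8 were tested, 5 above and 3 below 0, with a median log2 fold change of 0.09. Hspa8 (log2 fold change 0.07, SE 0.20), Hsp90aa1 (-0.08, SE 0.17), Hspd1 (-0.01, SE 0.30) and Hspb1 (0.12, SE 0.39) had the highest mean CPM. Hspa1a, named after its values were seen, had 0 and 1 reads in STING ECKO libraries 1 and 2, against 12 and 46 in WT libraries 3 and 5.

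**Figure D5:**
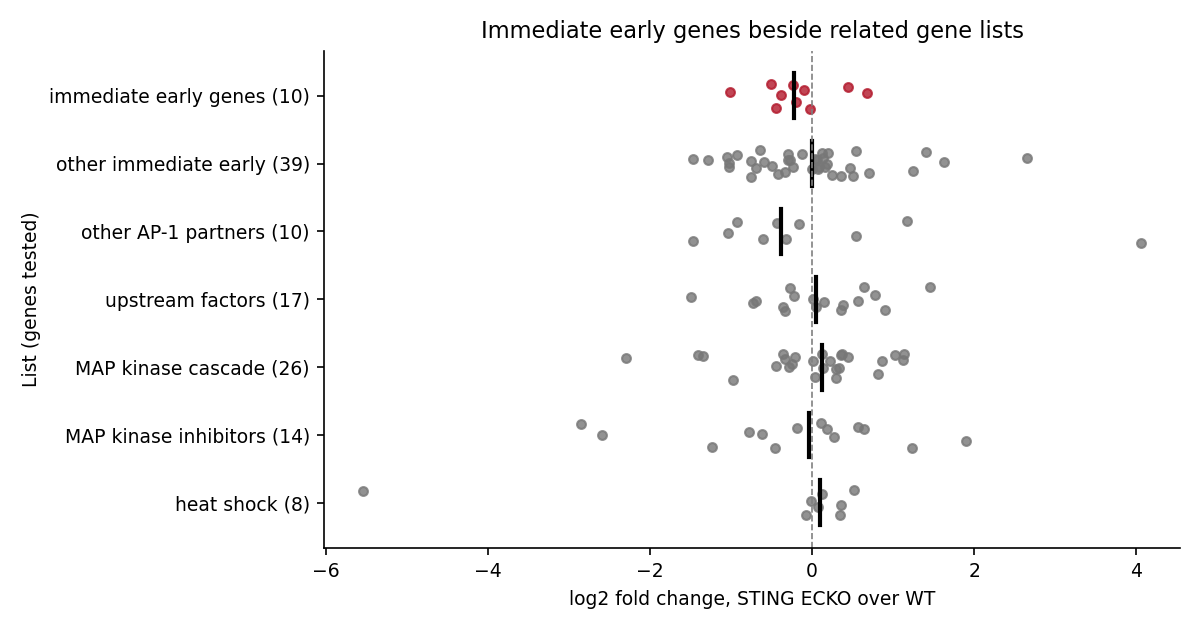
Log2 fold change of STING ECKO over WT for the tested genes of the 10 immediate early genes (red) and of 6 related lists (grey), with a black bar at each median and list sizes in brackets. Medians lie between -0.38 (other AP-1 partners) and 0.13 (MAP kinase cascade), and single genes of the related lists reach further from 0 than any of the 10.

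The genes whose pattern over the 4 libraries was most like the mean of the 10 were found by the root mean square distance of centred log2 CPM, among 10283 genes with a mean of at least 5 CPM. The mean profile was -0.29 and 0.04 in STING ECKO libraries 1 and 2, against 0.02 and 0.23 in WT libraries 3 and 5, on the log2 scale. Among the nearest were Gm11226 (distance 0.0139) and Degs1, a ceramide synthesis enzyme (0.0269). Degs1 was at 318 and 380 CPM in STING ECKO, against 388 and 448 CPM in WT. The 10 genes themselves lay further from their own mean, from 0.103 for Dusp1 to 0.821 for Jund.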

How the data were processed

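RNA of 2 STING ECKO and 2 WT libraries had been counted per gene. Per the submitters' processing notes, TopHat2 2.0.12, Bowtie2 2.2.3 and HTSeq 0.6.0 were used with mm9; the positions in the tables are those of GRCm38, as 89.7% of matched genes were identical to GENCODE M21. Per the file headers, the authors deposited a read count per gene and a normalized value. The normalized value was CPM of the listed reads within 0.1% in 100% of genes, with genes without reads set to a fraction of a read. The deposited fold columns are ratios of these CPM values, the log2 columns their log2, and the deposited p-value columns set a single library against another, so none is printed. All columns were assigned to samples. The tables were joined by gene identifier. edgeR 4.0.16 (R 4.3.3) was run on the counts of 14100 genes with filterByExpr (minimum count 10), TMM factors on listed totals of 18610298 to 22169261 reads, and the quasi-likelihood test at 0.05, adjusted by Benjamini-Hochberg over 13365 genes; all 10 members passed the filter. One read was worth 0.0451 to 0.0537 CPM. Log2 CPM used a prior count of 2. DESeq2 1.42.0, limma 3.58.1 (voom), the edgeR likelihood ratio test, a block by table, other filters and scalings, and fits without each library in turn were alternatives. Counts of genes without overlap on library totals were added after the data were seen. Exon lengths and 3′ UTRs came from GENCODE M21 and promoters from RefSeq. Code was tested on simulated data. In each related list the 4 genes with the highest mean CPM were named, and for likeness the 3 nearest genes, apart from 1 of each kind that is not reported here. The members and lists were chosen with earlier results of these data known.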

Additional observations from a re-analysis of the deposited data

How the results depend on the processing

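No member passed the test under any of the 14 alternatives. Fos, Jun, Ier2, Dusp1 and Nr4a1 kept their sign in all 14. All genes called were 87 with DESeq2 and 33 with the edgeR likelihood ratio test, against 0 in the quasi-likelihood test, in limma-voom and in the other 11. The number of members above 0 was 2, and 1 with a mean of at least 5 CPM (Jund left out), with limma-voom and with the deposited table as a block. It ranged from 2 to 5 when a library was left out, and the members' median log2 fold change from -0.52 to -0.064. Log2 fold changes that turned sign were Fosb (-1.05 to 0.32 over the fits without a library, above 0 without STING ECKO 1), Junb (-0.17 to 0.089, above 0 without STING ECKO 1 and at 0.062 without WT 5), Egr1 (-0.78 to 0.14, above 0 without STING ECKO 1 and at 0.0034 without WT 5), Atf3 (-0.60 to 0.61, above 0 without WT 5 and at 0.27 without STING ECKO 2) and Jund (-1.61 to 1.24, below 0 without STING ECKO 2, -0.053 with limma-voom and -0.13 with the block). The cause was not tested. Leaving out a library leaves its genotype with 1, which is assumed to vary like the other. Per kilobase of the tables' gene span, Atf3 ranked below Fosb. The genotypes share no replicate number in the labels. The block by deposited table, which pairs STING ECKO 1 with WT 3 and STING ECKO 2 with WT 5, gave 277 genes at an unadjusted p under 0.05, against 650 without it.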
